A study of Mus musculus with 6 samples.

Results

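Mammalian enzymes that write methylation onto cytosines of CpG dinucleotides include the DNA methyltransferases DNMT1, DNMT3A and DNMT3B, and 3 TET dioxygenases take it off. Transcripts of those 6 enzymes and of Uhrf1, the factor that brings the maintenance methyltransferase to newly copied DNA, were measured in mouse liver tumours. The 7 genes were the rows of the count table whose symbol was Dnmt1, Dnmt3a, Dnmt3b, Uhrf1, Tet1, Tet2 or Tet3, out of 52459 rows, and all 7 passed the filter on low counts. In the tumours with MYC inactivated, 6 of the 7 were lower, where 22.8% of all tested genes were, and 0 of the 7 were higher, where 29.9% of all tested genes were. In either direction 52.7% of tested genes were called, against 6 of the 7. Uhrf1, Tet1 and Dnmt1 had the widest falls of the 7, and Dnmt3a, Dnmt3b and Tet3 fell less. Tet2 did not pass the test.

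Bulk RNA was sequenced from 6 liver tumour samples of the genotype MYC-LAP-tTA, 3 taken 4 days after MYC inactivation (MYC-Off) and 3 with MYC active (MYC-On). LAP is a liver-restricted promoter, and tTA is the tetracycline transactivator, which drives a MYC transgene in hepatocyte-lineage cells. Both groups therefore carry the transgene system, and MYC-On tumours, not normal liver, are what MYC-Off tumours are set against. No strain, age or switching agent is given for either group. Nothing in the labels ties the samples to separate animals, and p-values then reflect only how far the 3 samples of a group differ, which could be technical.

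DNMT1 copies methylation onto the new strand after replication, guided by UHRF1, which binds hemimethylated DNA. DNMT3A and DNMT3B place methylation on sites that had none. TET1, TET2 and TET3 oxidise methylcytosine, which base excision repair or dilution through replication then removes.

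RefSeq (GRCm38.p6) promoter windows, the 250 bases before each annotated start, were matched for all 7 genes and gave 12 windows, of which 3 are shown. The first and second are the windows among the 12 that hold a searched motif, and the last is the one with the most CpG dinucleotides. The E2F core TTCCCGC, a sequence bound by a family of cell-cycle transcription factors, was found on either strand in 1 of the 7 genes, Uhrf1, beside 4.38% of all 27025 genes with a window. The E-box CACGTG, which MYC with its partner MAX can bind, was found in 1 of the 7 genes, Dnmt3a, beside 6.86% of all genes. The longer core TTTCCCGC, which contains the shorter one, was in none of the 12 windows and in 0.895% of all 32851 windows. In the Uhrf1 window (chr17:56303087-56303336, plus strand) the capitals mark TTCCCGC, whose first base lies 48 bases before the start at 56303337. In the Dnmt3a window (chr12:3891494-3891743, plus strand) they mark CACGTG, 80 bases before the start at 3891744. In the Tet2 window (chr3:133544391-133544640, minus strand) they mark each of the 51 CpG dinucleotides.
Uhrf1: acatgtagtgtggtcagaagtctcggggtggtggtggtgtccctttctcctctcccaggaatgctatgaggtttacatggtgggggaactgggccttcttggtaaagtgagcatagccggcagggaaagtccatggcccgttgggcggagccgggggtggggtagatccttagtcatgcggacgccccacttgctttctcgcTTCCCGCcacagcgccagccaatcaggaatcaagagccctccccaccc
Dnmt3a: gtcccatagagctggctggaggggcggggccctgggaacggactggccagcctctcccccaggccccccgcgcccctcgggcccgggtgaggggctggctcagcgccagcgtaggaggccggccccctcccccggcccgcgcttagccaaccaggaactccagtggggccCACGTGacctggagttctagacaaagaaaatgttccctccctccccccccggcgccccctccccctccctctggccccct
Tet2: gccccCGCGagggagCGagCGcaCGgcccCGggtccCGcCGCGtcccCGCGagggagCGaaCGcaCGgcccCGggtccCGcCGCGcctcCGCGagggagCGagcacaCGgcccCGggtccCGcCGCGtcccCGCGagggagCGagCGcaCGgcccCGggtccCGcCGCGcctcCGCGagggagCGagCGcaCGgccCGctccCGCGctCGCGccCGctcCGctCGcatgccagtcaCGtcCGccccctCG

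A match describes the letters alone, and a window without one says only that these letters are not in it. The Tet2 window held more CpG dinucleotides than 99.9% of all windows. Other windows of the 7 genes held between 2, in a Dnmt1 window, and 40, in a Dnmt3a window. Gene-level counts do not tell which annotated start was used.

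Libraries held between 16292718 and 19265623 reads assigned to genes, and 1 read was worth between 0.0409 and 0.0768 CPM (reads scaled to a common library total, here with TMM factors). Myc, checked first, stood at 74.8, 10.2 and 18.7 CPM in MYC-Off 1, 2 and 3, against 779, 1018 and 854 CPM in MYC-On 1, 2 and 3. Its log2 fold change, MYC-Off minus MYC-On here and throughout, was -4.67 (SE 0.80). Its adjusted p was 0.0035 in the quasi-likelihood test of edgeR, the Benjamini-Hochberg adjustment running over all 14130 tested genes, as for every adjusted p of a gene given here. Whether reads of the transgene were counted in this row cannot be told from the table. Hepatocyte markers were present in every library, summing to between 109727 and 281485 CPM in MYC-Off and between 3902 and 8177 CPM in MYC-On. MYC-Off 1 had the highest Myc of its group, the lowest hepatocyte sum and the highest macrophage and T cell marker sums.

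Uhrf1 (chromosome 17, 56303321 to 56323486, plus strand, GENCODE M21 on GRCm38 as for all gene coordinates) had the widest fall of the 7. It stood at 9.73, 6.20 and 5.22 CPM in MYC-Off 1, 2 and 3, against 116, 125 and 98.3 CPM in MYC-On 1, 2 and 3. Every MYC-Off library lay far below every MYC-On library, with MYC-Off 1 the highest of its group. The mean was 7.05 ± 2.37 CPM in MYC-Off and 113 ± 13.8 CPM in MYC-On (SD, n = 3 each), a level 16-fold lower. The log2 fold change was -4.00 (SE 0.31, 95% interval -4.73 to -3.27, adjusted p = 0.000805), and 0.786% of tested genes had a lower one.

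Dnmt1, the maintenance methyltransferase (chromosome 9, 20907209 to 20959888, minus strand), stood at 39.4, 28.1 and 22.4 CPM in MYC-Off and at 138, 234 and 122 CPM in MYC-On, in replicate order. The groups did not overlap, and MYC-On 2 lay well above the others of its group. Its mean was 30.0 ± 8.64 CPM in MYC-Off and 165 ± 60.1 CPM in MYC-On (SD, n = 3 each). The log2 fold change was -2.46 (SE 0.35, 95% interval -3.28 to -1.64, adjusted p = 0.00189), 5.49-fold lower.

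Dnmt3a and Dnmt3b, the de novo methyltransferases, fell less. Dnmt3a (chromosome 12, 3806007 to 3914443, plus strand) stood at 204, 75.5 and 64.5 CPM in MYC-Off and at 383, 388 and 328 CPM in MYC-On. MYC-Off 1 was nearer to the MYC-On libraries than the other two MYC-Off libraries were, yet the groups did not overlap. The mean was 115 ± 77.6 CPM in MYC-Off and 366 ± 33.1 CPM in MYC-On, a log2 fold change of -1.68 (SE 0.47, 95% interval -2.78 to -0.57, adjusted p = 0.0212, n = 3 each). Without MYC-Off 1 it was -2.53. Leaving out MYC-Off 2 or any one of the MYC-On libraries ended the call, and the adjusted p ran from 0.000447 to 0.0639 over the 6 fits that leave out 1 library. The MYC-Off libraries spanned 1.66 on the log2 scale, more than 74.2% of tested genes did, while MYC-On spanned 0.24.

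Dnmt3b (chromosome 2, 153649450 to 153687730, plus strand) stood at 12.6, 10.7 and 18.4 CPM in MYC-Off and at 27.8, 27.1 and 27.9 CPM in MYC-On. The groups did not overlap, and the MYC-On libraries were nearly level: 0.594% of tested genes had a smaller range in that group. The mean was 13.9 ± 4.02 CPM in MYC-Off and 27.6 ± 0.452 CPM in MYC-On, a log2 fold change of -0.99 (SE 0.27, 95% interval -1.62 to -0.36, adjusted p = 0.0184, n = 3 each). The call ended without MYC-On 1 (adjusted p = 0.0595) and without MYC-On 3 (0.0551), the 6 such fits giving 0.00685 to 0.0595.

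Among the TET dioxygenases, Tet1 (chromosome 10, 62804570 to 62908996, minus strand) had the fewest reads, 16, 6 and 7 in MYC-Off and 111, 199 and 89 in MYC-On. These were 0.879, 0.459 and 0.538 CPM in MYC-Off, against 4.94, 8.14 and 4.39 CPM in MYC-On. No MYC-Off library reached the lowest MYC-On library, and MYC-On 2 was the highest, as for every other gene of the 7 except Dnmt3b. The mean was 0.625 ± 0.223 CPM in MYC-Off and 5.83 ± 2.03 CPM in MYC-On (SD, n = 3 each), a log2 fold change of -3.19 (SE 0.51, 95% interval -4.39 to -1.99, adjusted p = 0.00276). It was 9.13-fold lower, and 2.38% of tested genes had a lower log2 fold change.

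Tet3 (chromosome 6, 83362373 to 83459084, minus strand), the most abundant of the TET genes per length, stood at 29.8, 41.6 and 42.9 CPM in MYC-Off and at 81.3, 88.0 and 55.8 CPM in MYC-On. The groups did not overlap, and here MYC-Off 1 was the lowest of its group. The mean was 38.1 ± 7.23 CPM in MYC-Off and 75.0 ± 17 CPM in MYC-On, a log2 fold change of -0.98 (SE 0.26, 95% interval -1.59 to -0.36, adjusted p = 0.0176, n = 3 each). The call ended without MYC-On 1 (adjusted p = 0.0601) and without MYC-On 2 (0.0593), the 6 such fits giving 0.0136 to 0.0601.

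Tet2 (chromosome 3, 133463679 to 133545139, minus strand) stood at 12.1, 14.5 and 11.2 CPM in MYC-Off and at 13.9, 17.1 and 11.2 CPM in MYC-On. The groups overlapped. The mean was 12.6 ± 1.72 CPM in MYC-Off and 14.1 ± 2.91 CPM in MYC-On, and the log2 fold change of -0.16 (SE 0.28, adjusted p = 0.659, n = 3 each) did not pass. Its 95% interval, -0.81 to 0.50, leaves room for a change in either direction of up to those sizes. Macrophage markers summed to 777 to 2667 CPM in MYC-Off and 240 to 343 CPM in MYC-On, and their part in the Tet2 level was not tested.

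**Figure D1:**
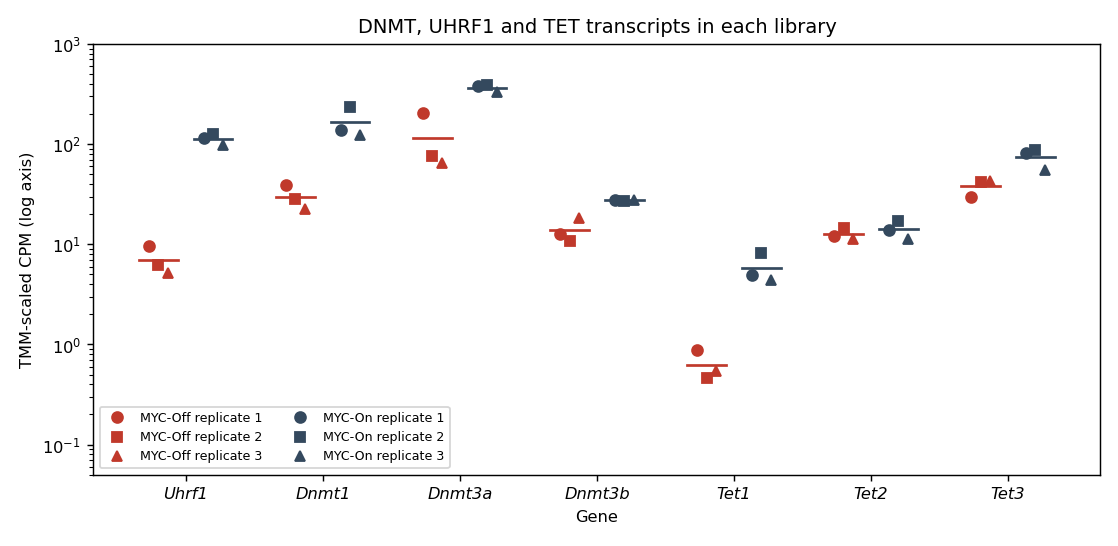
Levels of the 7 genes in the 6 libraries, in TMM-scaled CPM on a log axis, with MYC-Off left of MYC-On. Points are libraries and lines are group means. Uhrf1 lies between 5.22 and 9.73 CPM in MYC-Off and between 98.3 and 125 CPM in MYC-On, while the Tet2 groups overlap.

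Of the 7 genes, 6 were thus called lower in MYC-Off. The count of 0 higher was also 0 at an unadjusted p under 0.05 in edgeR, 0 by DESeq2 and 0 by limma-voom. Groups lay apart, with every MYC-Off library below every MYC-On library, in 6 of the 7 and in 29.8% of tested genes. The opposite separation held for 0 of the 7 and for 33.2% of tested genes. Against a minimum change of 2-fold (edgeR's glmTreat), 3 of the 7 were lower, Uhrf1, Dnmt1 and Tet1 (adjusted p = 0.00162, 0.00744 and 0.00785 in that order), beside 10.1% of tested genes, and 0 of the 7 were higher, beside 18.5%. The median log2 fold change of all tested genes was 0.18. Scaling by library size only moved that median by -0.74 and left 32.3% of called genes higher in place of 56.7%. Relative to the median, Uhrf1 was at -4.18 with TMM and -4.10 with library size only, Tet2 at -0.33 and -0.34, and no gene of the 7 changed direction or call under any of the 3 other scalings.

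The order of levels was read per length. Levels per kilobase of exon (CPM per kb, mean ± SD, n = 3) were, in MYC-Off, 6.89 ± 4.66 for Dnmt3a, 4.06 ± 1.17 for Dnmt1, 2.73 ± 0.787 for Dnmt3b, 2.28 ± 0.433 for Tet3 and 1.66 ± 0.556 for Uhrf1. Each of these overlapped its neighbour in that order, whereas Tet2 at 0.749 ± 0.102 and Tet1 at 0.0405 ± 0.0144 lay apart below. In MYC-On, Uhrf1 stood at 26.6 ± 3.23, Dnmt1 at 22.3 ± 8.15 and Dnmt3a at 22.0 ± 1.99 CPM per kb, overlapping one another. Below them came Dnmt3b at 5.41 ± 0.0885, Tet3 at 4.49 ± 1.02, Tet2 at 0.835 ± 0.173 and Tet1 at 0.377 ± 0.131, each apart from the next. With the longest annotated transcript in place of all exonic bases, Dnmt3a came first in MYC-On at 37.8 ± 3.41, above Uhrf1 at 31.6 ± 3.84 CPM per kb, and Tet3 stood above Dnmt3b in both groups.

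Shares within each family do not depend on library scaling. Dnmt1 made up 26.6%, 36.5% and 28.9% of DNMT reads per kilobase in MYC-Off and 39.7%, 52.5% and 39.7% in MYC-On, so every MYC-Off share was below every MYC-On share. Dnmt3b made up 12.3%, 20.1% and 34.3% in MYC-Off and 11.5%, 8.80% and 13.1% in MYC-On, and the groups overlapped. Dnmt3a, at 61.1%, 43.4% and 36.8% in MYC-Off and 48.7%, 38.7% and 47.2% in MYC-On, overlapped too. Within the TET genes, Tet3 held most reads per kilobase in every library, 69.7% to 78.6% in MYC-Off and 77.4% to 81.0% in MYC-On. Tet2 made up 20.3% to 28.1% in MYC-Off and 13.7% to 15.5% in MYC-On, and Tet1 0.879% to 2.22% in MYC-Off and 5.32% to 7.74% in MYC-On. Neither the Tet2 nor the Tet1 ranges overlapped.

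**Figure D2:**
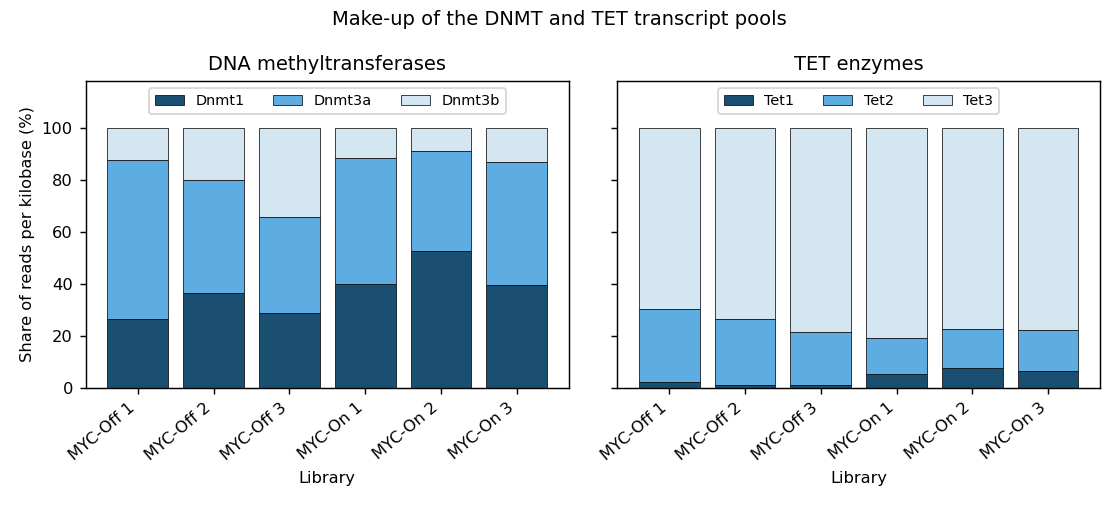
Shares of reads per kilobase of exon in each library, in percent, for Dnmt1, Dnmt3a and Dnmt3b (left) and for Tet1, Tet2 and Tet3 (right), with the MYC-Off libraries left of the MYC-On libraries. Dnmt1 makes up 26.6% to 36.5% of its family in MYC-Off and 39.7% to 52.5% in MYC-On.

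Ratios within a library were compared with a 2-sided exact permutation test, which with 3 against 3 cannot go below p = 0.1, and 6 measures were tested. Uhrf1 over Dnmt1 was -1.22, -1.38 and -1.30 on the log2 scale per kilobase in MYC-Off and 0.54, -0.11 and 0.48 in MYC-On. The difference of means was -1.61 (exact p = 0.1, 0.12 after Benjamini-Hochberg adjustment), and all 3 MYC-Off libraries were below all 3 MYC-On libraries. Set against the mean of 15 replication genes, which mark cells copying DNA, Uhrf1 stood at -0.47, -0.64 and -0.46 in MYC-Off and at 0.68, 0.58 and 0.44 in MYC-On, a difference of -1.09 (exact p = 0.1, adjusted 0.12).

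Dnmt1 against the same genes was the higher in MYC-Off, at 0.75, 0.74 and 0.84 in MYC-Off and 0.14, 0.68 and -0.03 in MYC-On, a difference of 0.51 (exact p = 0.1, adjusted 0.12). The DNMT sum over the TET sum was 2.97, 1.63 and 1.69 in MYC-Off and 2.97, 3.15 and 3.28 in MYC-On, a difference of -1.04 (exact p = 0.1, adjusted 0.12). MYC-Off 1 lay level with MYC-On 1 there. Dnmt3b over Dnmt3a was -2.31, -1.11 and -0.10 in MYC-Off and -2.08, -2.13 and -1.85 in MYC-On, a difference of 0.85 with overlapping groups (exact p = 0.4, adjusted 0.4). Leaving out 1 library gave differences of 0.31 to 1.42. The Tet1 share of the TET genes, with a prior count of 0.5 reads, differed by -5.12 percentage points (exact p = 0.1, adjusted 0.12), at 0.950% to 2.29% in MYC-Off and 5.34% to 7.76% in MYC-On.

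**Figure D3:**
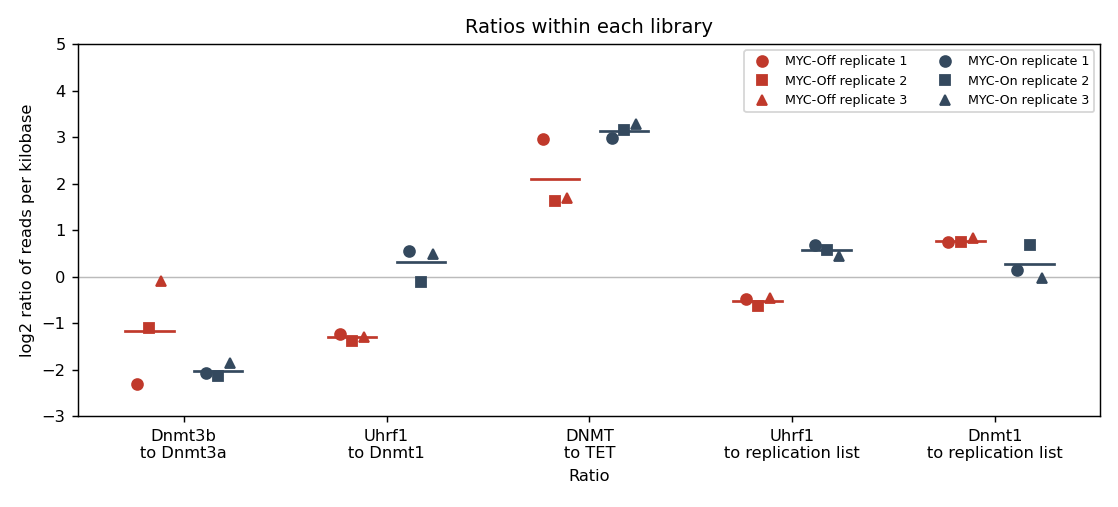
Log2 ratios of reads per kilobase within each of the 6 libraries, for 5 ratios. Points are libraries and lines are group means, with MYC-Off left of MYC-On. Uhrf1 over Dnmt1 is -1.22 or lower in MYC-Off and -0.11 or higher in MYC-On.

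The replication genes themselves, 15 of 15, were lower in MYC-Off. Their median log2 fold change was -3.20, and they summed to 122 to 228 CPM in MYC-Off against 1263 to 1587 CPM in MYC-On. Their part in the falls of Uhrf1 and Dnmt1 was not tested. In bulk tissue, fewer cells of a type and less RNA per cell cannot be told apart. Genes of maintenance methylation fell beside Uhrf1 and Dnmt1: 9 of 10 listed partners were lower and none higher, beside 22.8% and 29.9% of all tested genes, with a median of -1.68. Lig1, the ligase that joins newly made DNA fragments and helps to recruit UHRF1, averaged 19.7 ± 4.36 CPM in MYC-Off and 114 ± 4.93 CPM in MYC-On (log2 fold change -2.53, SE 0.24, adjusted p = 0.000841). Hells, a remodeller that opens heterochromatin to methylation, averaged 9.31 ± 6.37 CPM in MYC-Off and 128 ± 8.38 CPM in MYC-On (-3.78, SE 0.54, adjusted p = 0.00188). Its activator Cdca7 and the related Cdca7l were at -3.93 and -3.33, and Pcna, the replication clamp, at -2.16. The other called partners, Usp7, Ehmt1, Uhrf2 and Ehmt2, fell less, at -1.19, -1.19, -0.79 and -0.68. Against a minimum change of 2-fold, 5 of the 10 partners were lower, beside 10.1% of tested genes. Zbtb24, a zinc finger protein that activates Cdca7, was the partner that did not pass (0.70, adjusted p = 0.064).

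Around the de novo enzymes, 9 of 14 tested partners were lower and 1 higher, beside 22.8% and 29.9% of all tested genes, with a median of -1.35. Nsd2, which writes a histone methyl mark that DNMT3A reads, averaged 38.4 ± 2.48 CPM in MYC-Off and 128 ± 22.1 CPM in MYC-On (log2 fold change -1.74, SE 0.22, adjusted p = 0.00129). Cbx5, heterochromatin protein HP1 alpha, averaged 74.7 ± 12.8 CPM in MYC-Off and 305 ± 56.5 CPM in MYC-On (-2.03, SE 0.27, adjusted p = 0.00158). Zfp57, which keeps imprints methylated, was the one higher (2.14, SE 0.61, adjusted p = 0.0222), at 1.18 ± 0.592 CPM in MYC-Off and 0.266 ± 0.120 CPM in MYC-On. That call ended without MYC-Off 1 and without any one of the MYC-On libraries. Dnmt3l, the catalytically inactive cofactor of the de novo enzymes, and Dnmt3c, the rodent germline paralog of Dnmt3b, had 0 reads in all 6 libraries. The antisense gene Dnmt3aos shares 133 exonic bases with Dnmt3a on the opposite strand and had 15, 2 and 10 reads in MYC-Off and 0, 4 and 2 in MYC-On. Gm42567 shares 43 exonic bases with Tet2 on the opposite strand, and without a stated strand setting such reads cannot be assigned.

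Downstream of TET oxidation, 14 genes of base excision and of the Gadd45 family were listed. Of these, 5 were lower and 2 higher, beside 22.8% and 29.9% of all tested genes, with a median of -1.12. Neil3, a glycosylase, averaged 1.22 ± 0.324 CPM in MYC-Off and 13.0 ± 1.74 CPM in MYC-On (log2 fold change -3.40, SE 0.38, adjusted p = 0.000967). Parp1, which senses DNA breaks, averaged 60.1 ± 7.91 CPM in MYC-Off and 304 ± 57.5 CPM in MYC-On (-2.34, SE 0.27, adjusted p = 0.00101). Apex1, Lig3 and Xrcc1 completed the 5. Gadd45g and Gadd45a, stress-inducible genes linked to active demethylation, were the 2 higher, at 4.30 (SE 0.54, adjusted p = 0.00132) and 2.21 (SE 0.42, adjusted p = 0.00484). Gadd45b, of the same family, was at -1.32 (SE 0.53) and did not pass (adjusted p = 0.0719), though its groups did not overlap. The count of lower genes was 8 without MYC-Off 1 and 9 with library size only. Tdg, the glycosylase that removes oxidised methylcytosine, had 2, 10 and 4 reads in MYC-Off and 13, 39 and 14 in MYC-On (-1.31, SE 0.78, adjusted p = 0.191). Tdg has pseudogene copies, and how reads matching several places were counted is not known, so that row is uncertain.

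Of 8 genes that supply or regulate the TET enzymes, 3 were lower and 2 higher, beside 22.8% and 29.9% of all tested genes, with a median of -0.11. Idh1, which makes the oxoglutarate that TET enzymes use, averaged 423 CPM in MYC-Off and 123 CPM in MYC-On (log2 fold change 1.78, SE 0.42, adjusted p = 0.0107). Cxxc4, whose protein binds TET2, was at -3.78 (SE 0.90, adjusted p = 0.0115), and Ogt, a sugar transferase that partners TET proteins, at -0.85 (SE 0.25, adjusted p = 0.0233), a call that ended without MYC-On 1 and without MYC-On 2. Slc23a1, a vitamin C carrier, was at 1.83 (SE 0.64, adjusted p = 0.045) with overlapping groups. The 2 higher became 1 without MYC-Off 2, MYC-Off 3 or MYC-On 1 and 0 without MYC-On 2 or MYC-On 3.

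Of 8 genes listed as methyl-CpG readers or their relatives, 3 were higher and 1 lower, beside 29.9% and 22.8% of all tested genes. The median of 0.17 was close to that of all tested genes, 0.18. Zbtb4 averaged 45.4 ± 22.7 CPM in MYC-Off and 5.24 ± 0.287 CPM in MYC-On (log2 fold change 3.11, SE 0.41, adjusted p = 0.00151). Mbd1 (0.80, adjusted p = 0.0295) and Zbtb38 (0.84, adjusted p = 0.0309) were the others higher, and 1 of the 3 was called without MYC-Off 2, MYC-On 1 or MYC-On 3, and with library size only. Zbtb38 also lost its call without MYC-Off 1 and without MYC-On 2. Mbd3, a subunit of the NuRD remodelling complex, averaged 71.5 ± 14.3 CPM in MYC-Off and 150 ± 15.2 CPM in MYC-On (-1.07, SE 0.24, adjusted p = 0.00866), and without MYC-Off 1 the lower count was 2.

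Of 9 genes of methyl donor supply, 3 were higher and 2 lower, shares near the 29.9% and 22.8% of all tested genes, with a median of 0.36 beside 0.18 over all. Mat1a, the S-adenosylmethionine synthetase of adult hepatocytes, averaged 1961 ± 1209 CPM in MYC-Off and 322 ± 135 CPM in MYC-On (log2 fold change 2.61, SE 0.66, adjusted p = 0.014). Mat2a, the form found outside adult liver, averaged 94.3 ± 20.2 CPM in MYC-Off and 244 ± 21.0 CPM in MYC-On (-1.37, SE 0.26, adjusted p = 0.00472). Bhmt and Gnmt, hepatocyte enzymes of methionine handling, were at 4.79 (SE 0.89, adjusted p = 0.0047) and 3.69 (SE 0.85, adjusted p = 0.01). The Mat1a call ended without MYC-On 1 (adjusted p = 0.0528) and without MYC-On 2 (0.0624). Mtr, methionine synthase, was at -1.20 (SE 0.35, adjusted p = 0.0253), and 1 gene rather than 2 was lower without MYC-Off 2, MYC-On 1 or MYC-On 2. Like Mat1a, Bhmt and Gnmt, the hepatocyte marker sum was higher in MYC-Off. Of its tested markers 8 of 9 were higher. Hnf4a did not pass (0.46, adjusted p = 0.405), and its groups overlapped. None of the markers was at 0 in all libraries of a group. Within MYC-Off the sum was highest in MYC-Off 3, as Bhmt was, while Mat1a and Gnmt were highest in MYC-Off 2. Alb alone held 203650 of the 281485 CPM of that sum in MYC-Off 3. Cps1, Ahsg and Hnf4a were highest in MYC-Off 2, and Alb, Ttr, Apoa1, Fgb, Serpina1a and Cebpa in MYC-Off 3. The part of hepatocytes in these levels was not tested.

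Among 16 germline genes whose promoters DNA methylation is known to silence in somatic cells, 1 had enough reads to test, 9 were at 0 in all MYC-Off libraries and 7 at 0 in all MYC-On libraries. Sycp1, a meiotic chromosome protein, had 9, 2 and 8 reads in MYC-Off and 138, 602 and 58 in MYC-On (log2 fold change -4.71, SE 0.98, adjusted p = 0.00696). MYC-On 2 held most of those reads. It was also the highest MYC-On library for Myc, for the replication gene sum and for each of the 7 genes except Dnmt3b. In every MYC-Off library Sycp1 was below the minimum count of the filter on low counts. It thus entered the test through MYC-On, the group in which it was higher. With 1 gene tested, the call gives no direction for the germline list and no share to set beside all tested genes.

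**Figure D4:**
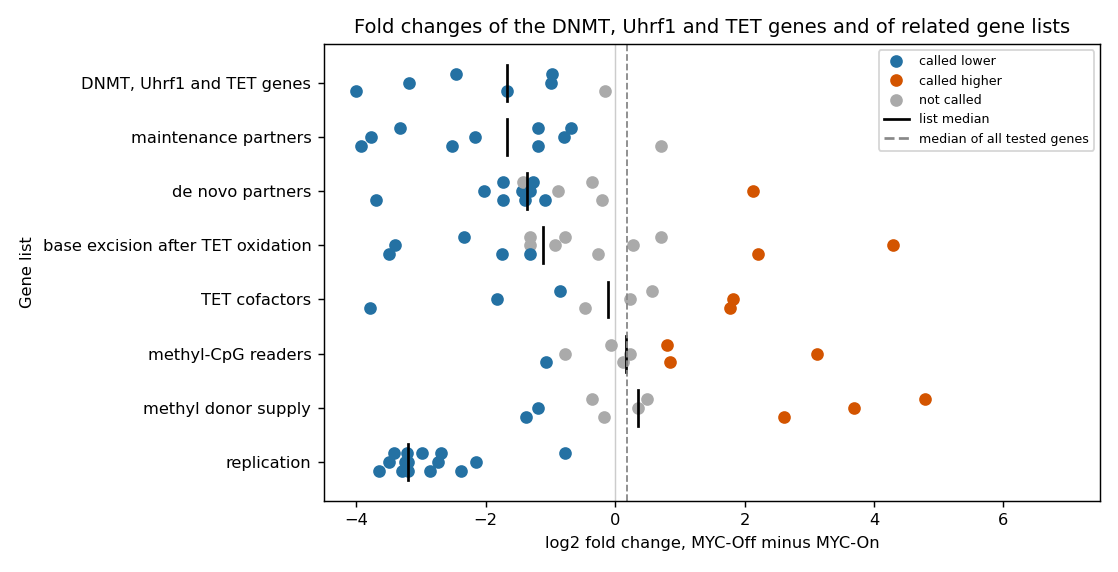
Log2 fold changes (MYC-Off minus MYC-On) of the 7 genes and of the genes of 7 related lists. Points are tested genes, coloured by call at an adjusted p of 0.05, short bars are list medians and the dashed line is the median of all tested genes, 0.18. All 15 replication genes and 9 of 10 maintenance partners lie on the lower side as called genes.

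Markers of other cells were mostly higher in MYC-Off, where 29.9% of all tested genes were, and none of the lists below held a marker at 0 in all libraries of a group. Called higher were 10 of 10 macrophage, 6 of 8 T cell, 2 of 2 B cell, 7 of 7 neutrophil, 7 of 8 endothelial, 8 of 8 stellate cell and fibroblast, and 2 of 5 cholangiocyte genes, with 1 cholangiocyte gene lower. The lower cholangiocyte gene, Krt7, had overlapping groups, and its call ended without MYC-Off 2, MYC-Off 3, MYC-On 1 or MYC-On 3. The macrophage count was 6 without MYC-On 2. The T cell count was 2 without MYC-Off 1 and 0, 0 and 1 without MYC-On 1, 2 and 3, and the B cell count over those 3 fits was 0, 0 and 1. T cell markers summed to 250, 27.1 and 6.61 CPM in MYC-Off 1, 2 and 3 and to 3.74 to 8.09 CPM in MYC-On. B cell markers summed to 14.4 to 95.8 CPM in MYC-Off and 3.96 to 7.45 CPM in MYC-On, and neutrophil markers to 165 to 272 CPM in MYC-Off and 2.41 to 3.50 CPM in MYC-On. Endothelial markers summed to 261 to 640 CPM in MYC-Off and 54.9 to 64.6 CPM in MYC-On. Stellate cell and fibroblast markers summed to 984 to 2310 CPM in MYC-Off and 133 to 144 CPM in MYC-On, and cholangiocyte markers to 86.1 to 253 CPM in MYC-Off and 44.1 to 104 CPM in MYC-On. Spp1 alone held 190 CPM of the highest cholangiocyte sum, that of MYC-Off 1. Of the MYC-Off libraries, MYC-Off 1 had the highest marker sum in all of these lists except that of neutrophils. Its replication genes also summed highest, at 228 CPM against 159 and 122 CPM in MYC-Off 2 and 3. MYC-Off 1 was the highest MYC-Off library for Uhrf1, Dnmt1, Dnmt3a and Tet1 as well. The part of those cells and of replication in these levels was not tested.

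The 7 genes did not share a single profile across the libraries. Likeness was the root mean square distance between log2 CPM profiles over the 6 libraries, each centred on its own mean. Each profile spans both groups, so the distance includes the difference in log2 fold change between genes and is not independent of it. Dnmt3b and Tet3 were the closest pair at 0.32, with Dnmt1 and Tet1 also at 0.32, and Uhrf1 and Tet2 the farthest at 1.96. The tested genes nearest to Uhrf1 were Spag5 (0.0855), Nek2 (0.122) and Shcbp1 (0.142), and those nearest to Dnmt1 were Abl2 (0.116), Tex10 (0.170) and Jade3 (0.174). G6pdx (0.159), Tbc1d1 (0.160) and Fam122b (0.163) came nearest to Dnmt3a, and Cdc16 (0.0679), Brd7 (0.0725) and Zfp330 (0.0796) to Dnmt3b. For Tet1 they were Cad (0.0979), Tcof1 (0.103) and Kifc5b (0.104), for Tet2 Cry1 (0.0465), Kdm2a (0.0604) and Trip12 (0.0618), and among those nearest to Tet3 were Tab3 (0.0873) and Irs2 (0.0883).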

How the data were processed

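The deposited table holds whole-number read counts that the authors made for 52459 gene rows in 6 libraries. Trimmomatic, STAR, Picard, featureCounts and DESeq2 with mm10 are named, per the submitters' processing notes. Neither versions nor the annotation, strand setting or treatment of multiply matching reads are stated there. Depth was 16292718 to 19265623 reads per library. In 26 rows the symbol had become a date and 2 rows repeated a symbol.

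Groups came from sample titles. MYC-Off was compared with MYC-On with edgeR 4.0.16 (R 4.3.3): filterByExpr (minimum count 10, total 15), TMM, a robust quasi-likelihood fit, Benjamini-Hochberg adjustment over 14130 genes and a threshold of 0.05. Standard errors came from the fold change and F statistic. CPM values are TMM-scaled. Lengths are the exon unions of GENCODE M21, which matched 91.5% of symbols. Ratios were taken per kilobase with a prior count of 0.5. Replicates of a group differed beyond sampling noise, with a chi-square of at least 32.1 per degree of freedom. The test was run on simulated data first. Alternatives were 3 other scalings (DESeq2 size factors, library size only, TMM without the 20 most abundant genes), no filter or 1 CPM in 3 libraries, each library left out in turn, glmTreat against 2-fold, a threshold of 0.01, the replicate number as a block, a fit without robust estimation, limma-voom (limma 3.58.1) and DESeq2 1.42.0.

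The 7 genes, the pathway lists and the marker lists were chosen with earlier results of these data known. Named in the lists are the 2 genes with the smallest adjusted p and any called against the majority. Hells, Cdca7, Pcna, Zbtb24, Tdg, Gadd45b, the remaining called genes of short counts and the antisense genes were named after their values were seen. So were Usp7, Ehmt1, Uhrf2, Ehmt2 and the single hepatocyte and cholangiocyte markers. The 3 tested genes nearest to each of the 7 were named by distance, leaving out unnamed gene models. Of the genes picked by these rules, 2 are not reported here.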

Additional observations from a re-analysis of the deposited data

How the results depend on the processing

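Uhrf1, Dnmt1 and Tet1 kept direction and call under all 17 alternatives, with log2 fold changes of -4.45 to -3.90, -2.85 to -2.17 and -3.67 to -2.92 when 1 library was left out. Tet2 was not called in any (-0.35 to -0.05 over those fits). Library size only gave 2527 genes higher and 5300 lower of all tested, against 4222 and 3221 as reported. An adjusted p of 0.01 gave 2368 higher and 1889 lower, and left 3 of the 7 genes lower; Dnmt3a (-1.68), Dnmt3b (-0.99) and Tet3 (-0.98) were lost. They were lost likewise in glmTreat against 2-fold, where 2621 genes were higher and 1428 lower. Leaving out 1 library gave 3 to 6 of the 7 lower, the 3 without MYC-On replicate 1, and 2776 to 4317 genes higher and 2337 to 3786 lower over all genes. Dnmt3a ran from -2.53 to -1.44, Dnmt3b from -1.32 to -0.92 and Tet3 from -1.21 to -0.90 over those fits. Each of those fits holds fewer libraries, and the cause of the lost calls was not tested. The 6 within-library measures kept their direction under every alternative run on them, with the DNMT to TET difference between -1.48 and -0.81 and the Tet1 share difference between -5.74 and -3.60 points. With 1 library left out, Cry1 ran from -0.28 to 0.022 and Trip12 from -0.34 to 0.027, both positive without MYC-On replicate 2. Cry1 was called in no fit, and Trip12 with library size only (-0.87, adjusted p = 0.0455). Of 50 other named genes, 20 lost their call in at least 1 alternative.

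Same-numbered libraries did not deviate together (correlations of -0.26, -0.17 and 0.04 for numbers 1, 2 and 3), and 1 of the 3 MYC-Off libraries correlated best with its own number. With the replicate number as a block, 6 of the 7 genes were lower, with 3152 genes higher and 2611 lower over all genes. Under that block Mat1a (adjusted p = 0.0648) and Gnmt (0.0572) were not called, leaving 1 of the 9 methyl donor genes higher. Depth limits Tet1 most, at 6 to 16 reads in MYC-Off.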
